A study of Mus musculus with 32 samples.

Results

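The axoneme is the microtubule core of cilia and of the sperm tail: a ring of doublet microtubules around a central pair, bent by dynein motors and steered by radial spokes and the central apparatus. In mice the tail is built in spermatids, after meiosis, and many of its genes are transcribed earlier, in spermatocytes. The genes described here are the protein-coding genes of GENCODE mouse release M21 whose symbols begin with Cfap, Dnah, Dnaic, Dnai, Dnal, Dnaaf, Rsph, Drc, Tekt, Spag or Spef and a digit. Of 84 such symbols, 73 were among the 20368 genes of the deposited juvenile gene table, which keeps genes that reached 3 TPM (transcript abundance corrected for length and scaled to the same total in every sample) in at least 1 mouse, and 11 were not. These 73 members were sorted by the known role of their proteins into 10 lists that hold 68 of them, and 5 members are in no list. The label does not suit all of them, since it takes in 4 members by their Spag symbol (sperm-associated antigen) alone. Their proteins are neither part of the axoneme nor assembly factors of its dynein arms. The arm assembly factors act in the cytoplasm, as described below, and are not part of the axoneme themselves.

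RNA was sequenced from germ cells of male C57BL/6J mice during the first wave of spermatogenesis, and the deposited tables hold 3 mice at 8 days post partum (dpp) and 5 mice every other day thereafter, up to 18 dpp. Further samples of 8 dpp were sequenced and left out by the authors, as they agreed poorly with others of that age, so the mice of 8 dpp used here were selected. A juvenile sample came from 1 mouse, and mice are named by age and replicate number, which at 14 dpp are 1, 2, 3, 6 and 7. The other 4 samples were pachytene and diplotene spermatocytes of adult C57BL/6J males of 9 weeks, each pooled from 6 mice and enriched by sedimentation, and their table was normalized apart from the juvenile one. The files hold abundances and no read counts, so the depth of the samples is unknown, and the spread between mice is the only error given. Levels are given as TPM, and differences between ages as differences of mean log2(TPM + 1), here called log2 differences. A gene was called where limma, fitted to all 20368 genes and all 28 mice, gave a Benjamini-Hochberg adjusted p under 0.05. Adding 1 before the logarithm makes the log2 difference of a gene at low TPM smaller than that of its TPM. These are mixed samples, and the authors also scored the stages of germ cells in these mice; those scores, published apart from the deposited tables, were not used, so the part of cell numbers and of RNA per cell in any difference was not tested. The labels name no sequencing run, and 13 of the 15 libraries of 14 to 18 dpp carry an index that a library of 8 to 12 dpp also carries; a part of the run in any difference between ages was not tested.

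Summed over the 73 members, the level was 619, 587 and 607 TPM in the mice of 8 dpp and 614, 621, 588, 607 and 613 TPM in those of 10 dpp. At 12 dpp the sums were 746, 811, 923, 716 and 779 TPM, and at 14 dpp they were 1031, 837, 997, 1062 and 946 TPM. They reached 3401, 2118, 1873, 1970.2 and 2770.2 TPM at 16 dpp, and 8380.1, 8264, 7649, 4272 and 4019 TPM at 18 dpp. The ages 8 and 10 dpp overlapped, every mouse of 12 dpp lay above every mouse of 10 dpp, the ages 12 and 14 dpp overlapped, and both 16 and 18 dpp lay above all earlier ages and apart from each other. As mean ± SD the sums went from 604 ± 16.3 TPM (n = 3) at 8 dpp to 6517 ± 2184 TPM (n = 5) at 18 dpp. The 4 Spag genes outside the axoneme made up 191 ± 8.34 TPM of this at 8 dpp and 223 ± 27.3 TPM at 18 dpp. A transcript counted for Cfap43 that may belong to another gene, described below, made up 20.9 TPM at 8 dpp. Rsph1 alone was at 12.2 to 17.03 TPM at 10 dpp, 46.2 to 129.9 TPM at 12 dpp and 958 to 1763 TPM at 18 dpp. Within 18 dpp, mice 1, 2 and 3 had higher sums than mice 4 and 5, and mouse 1 had the highest level in 43 members and mouse 5 the lowest in 51. Within 16 dpp, mouse 1 had the highest level in 60 members and mouse 3 the lowest in 37. The adult samples had sums of 17858, 18366, 17598 and 18024 TPM.

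The summed level of the 8 spermatocyte markers was 285, 198 and 279 TPM at 8 dpp and 5468, 5526, 5428, 3458 and 3390.4 TPM at 18 dpp, so that mice 1, 2 and 3 of 18 dpp were again above mice 4 and 5. Between these ages the 8 markers had mean sums of 249, 536, 728 and 2006 TPM at 10, 12, 14 and 16 dpp. Ldhc, a lactate dehydrogenase of spermatocytes, was the most abundant of them at 18 dpp, with a mean of 2396 TPM, while Hist1h1t, a linker histone gene of spermatocytes, was at 0 in 11 of 28 mice. The summed level of the 9 Sertoli cell markers went from 8019 ± 539.6 TPM at 8 dpp to 4097 ± 590.0 TPM at 18 dpp and 400.2 ± 62.4 TPM in the adult samples, with Clu the most abundant, while Rhox5, alone among them, rose, from a mean of 36.6 to 68.4 TPM (log2 difference 0.85, adjusted p = 0.00127). The 7 spermatogonium markers summed to 1175 ± 75.1 TPM at 8 dpp and 567 ± 97.2 TPM at 18 dpp, with Uchl1 the most abundant. The 8 spermatid markers were low in the juvenile samples, and their sums were 5.78 ± 1.14 TPM at 8 dpp and 12.02 ± 3.899 TPM at 18 dpp, and the protamine gene Prm1 was at 0 in 25 of 28 mice. Spaca1, the only marker of that list in the gene table, rose from a mean of 2.44 to 6.97 TPM (log2 difference 1.16, adjusted p = 7.1e-05). In the adult samples the spermatid markers summed to 1066 ± 143 TPM, with Prm1 at 209 TPM. Multiciliated epithelium also builds axonemes, and its 10 markers summed to 15.7 ± 0.396 TPM at 8 dpp and 23.9 ± 8.08 TPM at 18 dpp, with Mcidas, Gmnc and Cdhr3 at or near 0. In the adult samples these 10 markers summed to 86.2 ± 4.87 TPM, with Deup1 the most abundant at a mean of 55.5 TPM. Deup1, which makes the centrioles of multiciliated cells, was the marker of that list that rose, with a log2 difference of 3.00 between 18 and 8 dpp (adjusted p = 1.7e-09), and Krt18 fell by 1.86. At 8 and 18 dpp, the Leydig cell markers summed to 188 ± 11.7 and 267 ± 131 TPM and the peritubular cell markers to 1101 ± 55.1 and 741 ± 256 TPM. The macrophage markers summed to 28.4 ± 3.91 and 54.05 ± 18.3 TPM at those ages, and the red blood cell markers to 464 ± 219 and 308 ± 42.4 TPM. The adult sums were 10919 ± 128 TPM for spermatocyte, 32.8 ± 2.18 TPM for spermatogonium, 234 ± 29.2 TPM for Leydig cell, 7.76 ± 2.27 TPM for peritubular cell, 4.89 ± 0.556 TPM for macrophage and 6.77 ± 1.59 TPM for red blood cell markers. Within 18 dpp, mice 4 and 5 had the higher sums for the markers of Sertoli cells (3667, 3588, 3748, 4754 and 4725 TPM in order of mouse), spermatogonia (486, 499, 505, 657 and 688 TPM), Leydig cells (184, 186, 169, 472 and 325 TPM), peritubular cells (586, 524, 554, 1006 and 1034 TPM) and macrophages (42.5, 43.9, 37.6, 66.02 and 80.2 TPM). They had the lower sums for spermatid and multiciliated markers, and mice overlapped for red blood cell markers. Within 16 dpp, mouse 1 had the highest sum for spermatocyte markers (2900 TPM, against 1525 to 2200) and the lowest for Sertoli cell markers (5468 TPM). It also had the highest for Leydig cell and macrophage markers (434 and 97.5 TPM), and mouse 3 the highest for Sertoli cell markers (7633 TPM). The part of these cell types in the levels of the members, and in their spread within an age, was not tested.

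**Figure D1:**
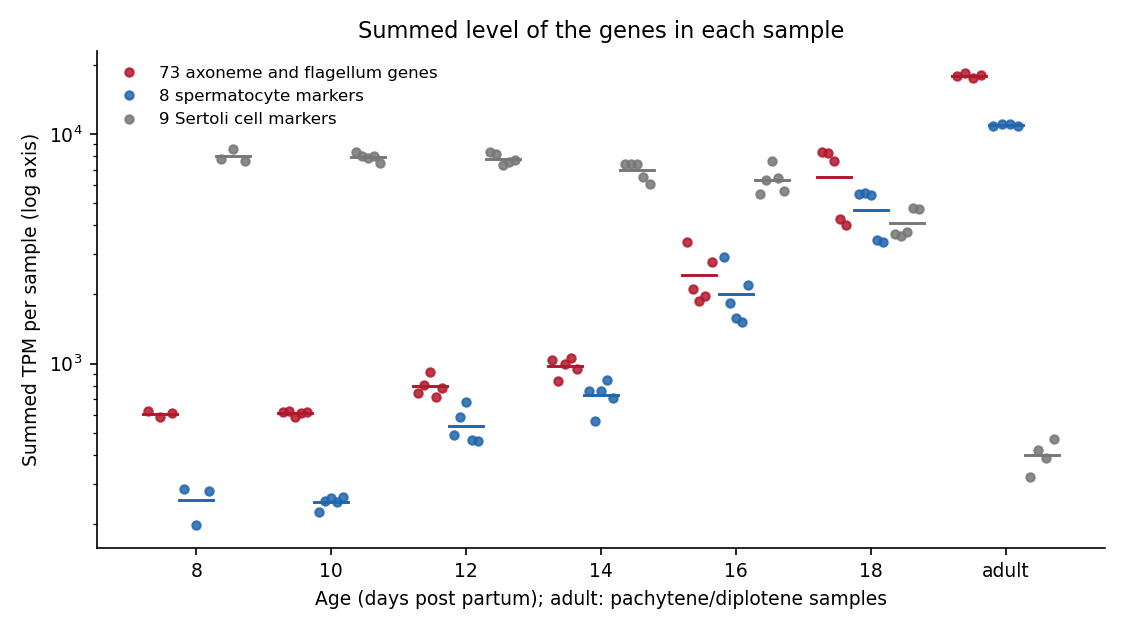
Summed TPM (log axis) of the 73 axoneme and flagellum genes, of 8 spermatocyte markers and of 9 Sertoli cell markers in each sample, by age in days post partum and for the adult pachytene/diplotene samples; each point is 1 sample and each bar the group's mean. The members go from 604 TPM at 8 dpp to 6517 TPM at 18 dpp, as the sum of the spermatocyte markers climbs and that of the Sertoli cell markers declines. Of the 604 TPM at 8 dpp, 191 TPM came from the 4 Spag genes outside the axoneme.

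Between 8 and 18 dpp, 69 of the 73 members rose, where 31.8% of all genes tested were called higher. Of these, Cfap73 and Spag6 reached 3 TPM in 1 mouse of 18 dpp only, which put them in the gene table, and 67 members rose where 3 mice had to reach 3 TPM. Another 2 members, Spag9 and Spag7, were called lower, where 36.3% of all genes were, and Spag4 and Cfap77 were not called. The median log2 difference of the members was 3.55, and that of all genes was -0.09. With median-of-ratios scaling in place of TPM alone, the median of all genes became 0.05 and that of the members 3.72. Under that scaling the calls of all genes went from 6487 higher and 7402 lower to 7589 and 5991, while 69 members were again called higher. A log2 difference of 3 or more was found for 46 members and for 4.66% of all genes, and one of 5 or more for 18 members and 1.28% of all genes. In 69 members the 3 mice of 8 dpp and the 5 mice of 18 dpp did not overlap, as in 61% of all genes, and the exceptions were Cfap77, Spag4, Spag6 and Spag7. The median of the members' mean levels was 1.22 TPM at 8 dpp and 51.7 TPM at 18 dpp, while the median over all genes was 11.4 and 13.0 TPM. At 8 dpp 27 members and 73.2% of all genes had a mean of at least 3 TPM, 35 members and 12.3% of all genes had a mean under 1 TPM, and at 18 dpp 70 members and 77.9% of all genes had a mean of at least 3 TPM. The table holds no gene that stayed under 3 TPM in all mice, so the counts cover genes with some signal only. Among others, Dnah6, Cfap58, Tekt3, Tekt4 and Rsph14 reached 3 TPM at 16 or 18 dpp only. Up to 14 dpp their highest levels were 0.28, 0.24, 0.68, 1.06 and 1 TPM, in that order. Such members pass the filter of 3 mice through the late ages too, so the 67 under it are not independent of the rise. The counts by role and those of the last steps, given below, share this limit.

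**Figure D2:**
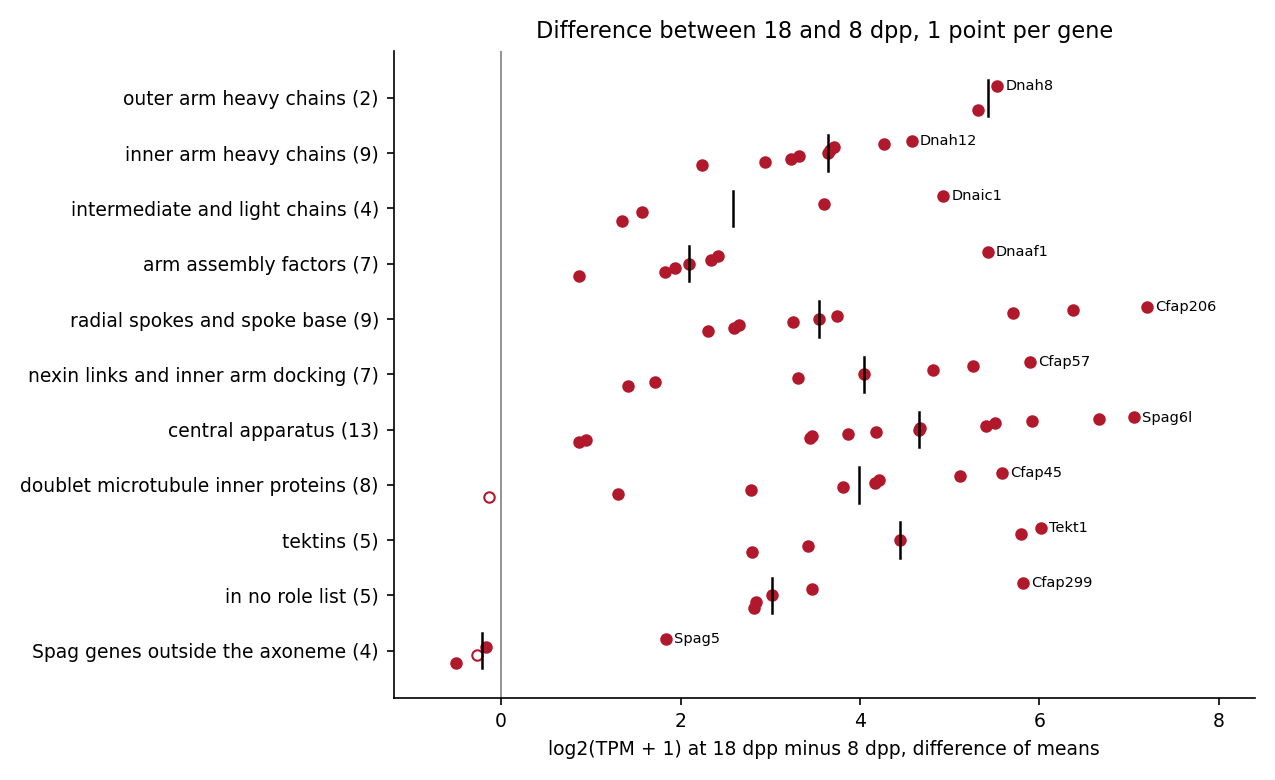
Difference of mean log2(TPM + 1) between 18 and 8 dpp for each of the 73 genes, grouped by role with the number of genes in brackets; filled points are called by limma, open points are not, black lines are group medians, and the gene with the largest difference of each group is named. All groups but the Spag genes outside the axoneme have a median above 2, and Spag7, drawn as called, turned to 0.01 with median-of-ratios scaling.

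To see which motifs the members share, the 250 bases before their starts were searched for short motifs on both strands, in RefSeq promoters of GRCm38.p6, which held 62 of the 73 members. No entry was found for Cfap157, Cfap299, Cfap53, Cfap54, Cfap65, Cfap73, Cfap97, Dnaaf1, Rsph1, Rsph10b and Spag1. RFX factors, which control ciliary genes, bind an X-box, and its half-site GTTGCC was present in 19 of 62 members (30.6%) and in 11.8% of 27025 genes. A pair of facing half-sites (the 14 letters GTTNCC, NN and GGNAAC in 1 run) were present in Cfap298 alone (1.61%) and in 0.444% of genes, and a half-site can lie inside them. AACNGNC, which MYB factors bind, was present in 31 members (50%) and in 30.6% of genes, and can overlap a half-site on the other strand. TGACGTCA, the full cAMP response element bound by CREB and CREM, was present in Dnah6, Spag4 and Spag6l (4.84%) and in 1.77% of genes. The half-site was found before 3 of 5 arm assembly factors, 4 of 9 inner arm heavy chains, 4 of 11 central apparatus genes and 0 of 7 radial spoke genes with an entry. These matches are letters in a window and not shown to be bound. Printed here 5′ to 3′ in the direction of the gene are the promoters of 4 members, chosen to show the half-sites and the response element, all on the minus strand, with the matches to GTTGCC (or GGCAAC, its other strand), the facing half-sites and TGACGTCA in capitals. They belong to Cfap298, a dynein arm assembly factor, at chr16:90934850-90935099, Tekt1, a tektin, at chr11:72361883-72362132, Cfap161, a protein inside the doublets, at chr7:83794840-83795089, and Spag6l, a central apparatus protein, at chr16:16829364-16829613.
Cfap298: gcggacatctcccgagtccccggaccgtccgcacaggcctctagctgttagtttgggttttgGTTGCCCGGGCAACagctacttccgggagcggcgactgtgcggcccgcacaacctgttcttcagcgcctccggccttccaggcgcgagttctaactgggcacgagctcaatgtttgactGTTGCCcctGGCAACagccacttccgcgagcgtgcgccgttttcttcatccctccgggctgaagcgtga
Tekt1: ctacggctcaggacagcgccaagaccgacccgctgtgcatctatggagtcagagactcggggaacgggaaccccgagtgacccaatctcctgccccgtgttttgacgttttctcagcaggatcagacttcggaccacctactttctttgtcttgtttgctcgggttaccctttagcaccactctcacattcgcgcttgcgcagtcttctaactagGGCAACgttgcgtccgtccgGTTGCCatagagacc
Cfap161: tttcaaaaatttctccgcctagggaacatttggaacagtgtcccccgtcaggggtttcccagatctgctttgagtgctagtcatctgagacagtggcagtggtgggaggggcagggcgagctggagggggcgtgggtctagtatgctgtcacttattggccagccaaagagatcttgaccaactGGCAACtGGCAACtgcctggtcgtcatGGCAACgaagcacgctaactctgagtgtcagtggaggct
Spag6l: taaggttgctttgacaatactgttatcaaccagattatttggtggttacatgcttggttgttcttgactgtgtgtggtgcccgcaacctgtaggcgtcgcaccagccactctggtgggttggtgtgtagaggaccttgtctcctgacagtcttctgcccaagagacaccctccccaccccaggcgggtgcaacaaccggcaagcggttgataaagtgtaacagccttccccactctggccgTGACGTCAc

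The Cfap298 promoter holds the facing half-sites 188 to 175 bases before the RefSeq start and a further pair of half-sites at 69 to 64 and 60 to 55 bases. Cfap298-201, the main transcript of that gene at 10 and 18 dpp, starts further upstream. It spans chr16:90925809-90935114 on the minus strand, so the whole printed window of Cfap298 lies inside this span. In Cfap161, 3 half-sites lie 66 to 61, 59 to 54 and 39 to 34 bases before the start, and each of the first pair shares letters with AACNGNC matches on the other strand. Tekt1 has half-sites at 35 to 30 and 15 to 10 bases, and in Spag6l the response element ends 2 bases before the RefSeq start. The gene span given below for Spag6l reaches past that start, so the response element lies inside it. Over the whole 300 bases of the table, a window chosen after seeing the data, GTTGCC was present in 25 members and in 14.1% of genes. By position, the members lie on 18 chromosomes, with 11 on chromosome 11, 9 on chromosome 1 and 0 on X or Y. A protein-coding neighbour that starts within 1000 bases on the opposite strand was found for 6 members (8.22%) and for 10.1% of 13660 protein-coding genes. At 8 and 18 dpp these neighbours had mean levels as follows: Hsdl1 beside Dnaaf1 (40.96 and 35.1 TPM), Ebna1bp2 beside Cfap57 (126 and 147 TPM), Prkar1b beside Dnaaf5 (6.01 and 3.07 TPM), Tom1l2 beside Drc3 (36.3 and 48.4 TPM), Fam219a beside Dnaic1 (7.51 and 30.7 TPM) and Stx8 beside Cfap52 (23.96 and 39.7 TPM).

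The outer dynein arms give the beat its power, and their heavy chains are the motors. Dnah8 and Dnah17, the heavy chains of sperm outer arms, both rose, where 31.8% of all genes were called higher. Their median log2 difference was 5.42. Dnah8 (ENSMUSG00000033826, chr17:30624354-30877365 of GRCm38) was at 1.89, 1.35 and 1.62 TPM in the mice of 8 dpp and at 226, 159, 138, 74.02 and 66.5 TPM in those of 18 dpp. All mice of 18 dpp were above those of 8 dpp, with mouse 1 highest and mice 4 and 5 lowest, and the log2 difference was 5.53 ± 0.30 (SE; adjusted p = 7.8e-15). Dnah17 was at 0.69, 0.34 and 0.2 TPM at 8 dpp and at 108, 73.3, 64.97, 31.9 and 29.1 TPM at 18 dpp. Its mice took the same order at 18 dpp, and its log2 difference was 5.31 ± 0.31 (SE; adjusted p = 3.4e-14). Both overlap genes on the opposite strand, which affects 40 of the 73 members, and since the strand of the libraries is not stated, reads of such pairs cannot be told apart.

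Inner arm heavy chains shape the waveform, and all 9 of them rose, where 31.8% of all genes were called higher. Their median log2 difference was 3.64. Dnah12 had the largest log2 difference, and it stood at 0.39, 0.51 and 0.43 TPM at 8 dpp and at 71.6, 47.4, 41.3, 16.8 and 17.2 TPM at 18 dpp. The ages did not overlap, mice 4 and 5 of 18 dpp were the lowest of their age, and the difference was 4.58 ± 0.33 (SE; adjusted p = 3.0e-12). Dnah10, with the smallest difference, was at 0.91, 0.52 and 0.81 TPM at 8 dpp and 17.1, 10.5, 9.17, 3.42 and 2.92 TPM at 18 dpp. Here too all late mice were higher, and the difference was 2.23 ± 0.32 (SE; adjusted p = 8.0e-07). Dnah7a, Dnah7b and Dnah7c are near-identical copies that can exchange reads, so the level of each is uncertain. The most abundant of the list at 18 dpp was Dnah7b, at 2.95, 3.21 and 3.23 TPM at 8 dpp and 62.8, 48.3, 42.8, 28.7 and 28.4 TPM at 18 dpp, a difference of 3.32 ± 0.20 (SE; adjusted p = 9.4e-14). Its copy Dnah7c was at 0, 0 and 0.75 TPM at 8 dpp and 13.3, 11.1, 9.73, 10.1 and 7.87 TPM at 18 dpp. Both copies were apart between the ages, with Dnah7c at 0 in 2 mice of 8 dpp. From 8 to 18 dpp the mean ± SD of Dnah7a went from 0.09 ± 0.03 (n = 3) to 21.1 ± 8.09 TPM (n = 5), and the log2 differences of Dnah7a and Dnah7c were 4.26 and 3.23.

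Intermediate and light chains tie the motors to the doublets. All 4 members of that list rose, by a median of 2.58, where 31.8% of all genes were called higher. Dnaic1, an outer arm intermediate chain, was at 1.11, 0.62 and 0.99 TPM at 8 dpp and 73.04, 74.5, 72.4, 41.4 and 35.9 TPM at 18 dpp. Mice 1, 2 and 3 of 18 dpp were close to each other and above mice 4 and 5, and the log2 difference was 4.93 ± 0.27 (SE; adjusted p = 1.6e-14). Dnal4, a light chain, was the most abundant of the list, at 27.3, 26.8 and 26.9 TPM at 8 dpp and 79.6, 84.8, 75.5, 59.3 and 57.6 TPM at 18 dpp. It was already expressed at 8 dpp and had the smallest difference of the list, 1.35 ± 0.12 (SE; adjusted p = 7.9e-11), with no overlap between the ages. Dnaic2, the other intermediate chain, had a late course. It was at 2.88, 2.49, 1.4, 2.33 and 2.44 TPM at 16 dpp and at 45.7, 43.2, 30.04, 5.41 and 4.46 TPM at 18 dpp, where mice 4 and 5 were far below mice 1, 2 and 3 and still above every mouse of 16 dpp. The log2 difference of Dnaic2 between 18 and 16 dpp was 2.51 ± 0.41 (SE; adjusted p = 1.8e-05), and between 16 and 14 dpp it was not called (adjusted p = 0.0992).

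Dynein arms are assembled in the cytoplasm by dedicated factors before they enter the tail. All 7 arm assembly factors rose, where 31.8% of all genes were called higher. Their median log2 difference was 2.10, and all 7 were at 3 TPM or more in every mouse of 8 dpp. Dnaaf1, which is needed for outer and inner arms, stood out in its list, at 5.65, 6.25 and 4.22 TPM at 8 dpp and 414, 397, 362, 161 and 148 TPM at 18 dpp. The ages were far apart, mice 4 and 5 of 18 dpp had the lowest levels of their age, and the log2 difference was 5.42 ± 0.28 (SE; adjusted p = 4.6e-15). Cfap298, with 4 half-sites in its RefSeq promoter, was at 38.8, 38.1 and 37.97 TPM at 8 dpp and 283, 289, 258, 135 and 142 TPM at 18 dpp, a difference of 2.42 ± 0.20 (SE; adjusted p = 2.2e-11). Its ages did not overlap, and mice 1, 2 and 3 of 18 dpp were high again. Dnaaf5 had the smallest difference, at 26.6, 24.5 and 29.7 TPM at 8 dpp and 51.2, 45.3, 56.6, 47.6 and 49.4 TPM at 18 dpp. Its ages did not overlap, its mice of 18 dpp were not ordered with mice 1, 2 and 3 on top, mouse 3 being highest and mouse 2 lowest, and its log2 difference was 0.87 ± 0.10 (SE; adjusted p = 1.1e-08). In the adult samples Dnaaf5 was at 46.5, 49.01, 49.5 and 48.8 TPM, within the range of 18 dpp, while Dnaaf1 was at 929, 952, 869 and 969 TPM, above all juvenile mice.

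Radial spokes carry signals from the central pair to the dyneins. All 9 members of this list rose, by a median of 3.55, where 31.8% of all genes were called higher. The list held the most abundant member and the member with the largest log2 difference. Rsph1 (ENSMUSG00000024033, chr17:31255019-31277383), a protein of the spoke head, was at 15.7, 13.8 and 16.9 TPM at 8 dpp and 15.5, 12.2, 12.7, 16.9 and 17.03 TPM at 10 dpp. It was at 90.2, 86.2, 129.9, 46.2 and 83.96 TPM at 12 dpp and 170.3, 103, 149.6, 169 and 134 TPM at 14 dpp. In the last mice it reached 806, 486, 399.9, 432 and 606 TPM at 16 dpp and 1606, 1763, 1666, 1026 and 958 TPM at 18 dpp. The mice of 8 and 10 dpp overlapped, those of 12 dpp lay above them with mouse 4 lowest, and the mice of 12 and 14 dpp overlapped, while 16 and 18 dpp each lay above all earlier ages. Between 18 and 8 dpp the log2 difference of Rsph1 was 6.37 ± 0.25 (SE; adjusted p = 4.3e-17). Cfap206 (ENSMUSG00000028294, chr4:34688559-34730206), which sits at the base of a spoke, was at 0.72, 0.45 and 1.08 TPM at 8 dpp, 6.14, 3.76, 8.98, 9.29 and 5.84 TPM at 14 dpp and 362, 363, 334, 162 and 144 TPM at 18 dpp. Each of these ages was above the one before without overlap, mice 4 and 5 were lowest at 18 dpp, and the difference between 18 and 8 dpp was 7.19 ± 0.36 (SE; adjusted p = 2.8e-15). Rsph10b had the smallest difference, at 2.78, 2.07 and 3.94 TPM at 8 dpp and 22.6, 24.7, 18.4, 13.5 and 13.8 TPM at 18 dpp, which do not overlap and give 2.31 ± 0.20 (SE; adjusted p = 1.2e-10). Rsph3a and Rsph3b, near-identical copies of a spoke stalk protein whose levels are uncertain for that reason, went from a mean ± SD of 15.8 ± 1.96 (n = 3) to 237 ± 85.4 TPM (n = 5) and of 29.4 ± 2.05 (n = 3) to 301 ± 90.5 TPM (n = 5) between 8 and 18 dpp. Their log2 differences were 3.75 and 3.26.

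The nexin links and the docking proteins of the inner arms hold neighbouring doublets together and fix the dyneins in their places. All 7 members of this list rose, Cfap73 among them at low levels, where 31.8% of all genes were called higher. Their median log2 difference was 4.04. Cfap57, a docking protein of inner arms, was at 0.55, 0.28 and 0.33 TPM at 8 dpp and 114, 110.1, 105, 55.1 and 48.7 TPM at 18 dpp. The mice of 18 dpp split into 1, 2 and 3 against 4 and 5, far above 8 dpp, and the log2 difference was 5.89 ± 0.29 (SE; adjusted p = 1.8e-15). Drc3, of the nexin links, was the most abundant of the list, at 4.98, 4.18 and 4.55 TPM at 8 dpp and 113, 116, 107, 70.6 and 61.6 TPM at 18 dpp, a difference of 4.04 ± 0.19 (SE; adjusted p = 1.1e-15). Its ages were apart and its mice of 18 dpp split in the same way. Cfap73, which anchors an inner arm, was the rarest, at 0 TPM in all 3 mice of 8 dpp and at 2.03, 3.96, 2.14, 1.03 and 0.39 TPM at 18 dpp, with a difference of 1.41 ± 0.29 (SE; adjusted p = 8.9e-05). It is in the gene table through mouse 2 of 18 dpp alone, so it was not tested where 3 mice had to reach 3 TPM, and it was called with no filter. Its only level above 0 before 16 dpp was 0.34 TPM in mouse 1 of 10 dpp.

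The deposited level of Cfap43, which tethers an inner arm to its doublet, took a course of its own. Much of it at the young ages belonged to a transcript that GENCODE M21 gives to another gene. The Ensembl release used by the authors was not at hand, so whether it gives this transcript to Cfap43 was not checked. The row sums all transcripts that the authors assigned to Cfap43, and 1 of the 294 transcripts counted for members is given by GENCODE M21 to another gene: Itprip-201, at chr19:47894602-47919299 on the minus strand, belongs there to Itprip, which encodes a protein that binds the inositol trisphosphate receptor. Itprip-201 was at 21.3, 21.7 and 19.7 TPM at 8 dpp, 5.4, 6.58, 5.64, 8.2 and 5.22 TPM at 12 dpp and 19.8, 18.2, 16.9, 7.13 and 7.21 TPM at 18 dpp. The other transcripts of Cfap43 were at 1.29, 1.45 and 1.05 TPM at 8 dpp, 2.52, 1.51, 2.87, 0.88 and 1.85 TPM at 12 dpp and 99.5, 93.8, 80.97, 40.9 and 29.8 TPM at 18 dpp. On average Itprip-201 was highest at 8 dpp and lowest from 12 to 16 dpp, while the other transcripts were low until 14 dpp and high at 18 dpp, and Itprip-201 made up 94.3% of the level at 8 dpp and 16.7% at 18 dpp. As deposited, Cfap43 was at 16.2, 17.8, 14.9, 11.9 and 9.48 TPM at 10 dpp and 7.92, 8.1, 8.51, 9.08 and 7.07 TPM at 12 dpp, the ages did not overlap, and it was called lower with a log2 difference of -0.69 ± 0.24 (SE; adjusted p = 0.038). Without Itprip-201, an alternative chosen after seeing the data, the difference between 12 and 10 dpp was 0.48 ± 0.27 (SE; adjusted p = 0.233) and not called. Between 18 and 8 dpp the deposited level gave 1.71 ± 0.28 (SE; adjusted p = 4.4e-06) and the level without Itprip-201 gave 4.81 ± 0.32 (SE; adjusted p = 3.7e-13). The lower call was also lost without mouse 1, 2 or 3 of 10 dpp (log2 difference -0.64, -0.60 and -0.67) or without mouse 1, 2, 3 or 5 of 12 dpp (-0.69, -0.69, -0.71 and -0.65), and with no filter (adjusted p = 0.114).

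**Figure D3:**
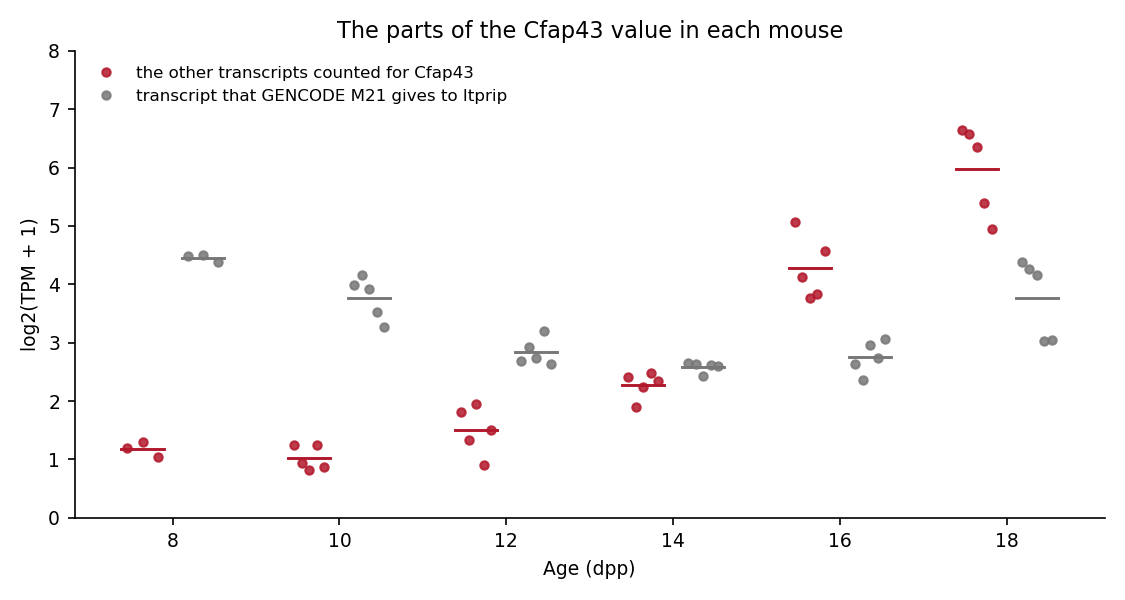
Level as log2(TPM + 1) of the transcript that GENCODE M21 gives to Itprip and of the other transcripts counted for Cfap43, by age in days post partum; each point is 1 mouse and each bar the mean. The Itprip transcript makes up 94.3% of the deposited level at 8 dpp and 16.7% at 18 dpp.

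The central apparatus surrounds the central pair of microtubules and sets the plane of the beat. All 13 of its members rose, Spag6 only in part of the fits, where 31.8% of all genes were called higher. Their median log2 difference was 4.65. Spag6l (ENSMUSG00000022783, chr16:16753016-16829456), a protein of the central pair that sperm motility depends on, was the most abundant of them and had the largest log2 difference. It was at 0.18, 0.43 and 0.19 TPM at 8 dpp, 4.93, 2.66, 4.56, 5.54 and 3.72 TPM at 14 dpp and 256, 238, 225, 102 and 91.7 TPM at 18 dpp. Each of these ages was above the one before in all mice, mice 4 and 5 of 18 dpp were lowest of their age, and the difference between 18 and 8 dpp was 7.05 ± 0.33 (SE; adjusted p = 8.1e-16). Its near-identical copy Spag6 stayed low, at 0.09, 0.46 and 0.38 TPM at 8 dpp and 3.99, 1.72, 1, 0.36 and 1.05 TPM at 18 dpp, and reads of the pair can be exchanged. The mice of Spag6 overlap between these ages, with mouse 4 of 18 dpp below mouse 2 of 8 dpp, and its difference of 0.87 ± 0.29 (SE; adjusted p = 0.00877) was not called without mouse 1 of 8 dpp (0.74, adjusted p = 0.051) or with only the 2 ages compared (adjusted p = 0.0767). Spag6 is in the gene table through mouse 1 of 18 dpp alone, so it was not tested where 3 mice had to reach 3 TPM, and it was called with no filter. Cfap65, a protein of a projection of the central pair, was at 0.16, 0.22 and 0.08 TPM at 8 dpp and 168, 146, 139, 79.8 and 75.9 TPM at 18 dpp, which gives 6.66 ± 0.26 (SE; adjusted p = 3.1e-17). Mice 4 and 5 were again the lowest of 18 dpp and far above 8 dpp.

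Proteins inside the doublet microtubules stabilize their walls. In this list 7 of the 8 members rose, with a list median of 3.99, where 31.8% of all genes were called higher. Cfap20, of the seam between the tubules of a doublet, was the most abundant, at 49.2, 56.4 and 50.02 TPM at 8 dpp and 134, 139.8, 144, 111 and 119 TPM at 18 dpp. The ages did not overlap, all mice had the gene expressed from 8 dpp on, and its difference was 1.30 ± 0.08 (SE; adjusted p = 9.2e-14). Cfap45 had the largest difference, at 0.37, 0.55 and 0.71 TPM at 8 dpp and 116, 109, 98.9, 40.7 and 39.3 TPM at 18 dpp, or 5.58 ± 0.32 (SE; adjusted p = 3.4e-14). The usual split of the mice of 18 dpp was present, and no late mouse came near the early ones. Cfap77 was the exception of the list, at 1.61, 0.72 and 1.34 TPM at 8 dpp and 2.12, 1.95, 1.09, 0 and 0.64 TPM at 18 dpp. Its mice overlap at these low levels, mouse 4 of 18 dpp is at 0, and its log2 difference of -0.14 ± 0.38 (SE; adjusted p = 0.766) was not called and was 0.11 without that mouse.

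Tektins form filaments inside the doublets, and all 5 rose, by a median of 4.45, where 31.8% of all genes were called higher. Tekt3, Tekt4 and Tekt5 reached 3 TPM at 16 or 18 dpp only, so this count is not independent of the filter. Tekt1, the most abundant, was at 0.51, 1.9 and 1.97 TPM at 8 dpp and 206, 216, 204, 93.6 and 91.9 TPM at 18 dpp, a log2 difference of 6.01 ± 0.41 (SE; adjusted p = 9.5e-13). Mice 1, 2 and 3 of 18 dpp were close together and mice 4 and 5 had lower levels. Tekt3 was at 0.68, 0.14, 0.14, 0.31 and 0.16 TPM at 14 dpp, 16.7, 5.74, 7.67, 6.6 and 13.2 TPM at 16 dpp and 99.7, 89.5, 89.4, 30.1 and 28.7 TPM at 18 dpp. It was under 1 TPM in every mouse up to 14 dpp, and from there each age was above the one before without overlap, by 3.01 ± 0.29 (SE; adjusted p = 1.3e-08) and then by 2.55 ± 0.29 (SE; adjusted p = 1.1e-06). Tekt4 was at 4.25, 1.69, 1.92, 2.08 and 4.54 TPM at 16 dpp and 49.3, 39.6, 42.2, 10.4 and 8.54 TPM at 18 dpp. Mice 4 and 5 of 18 dpp were nearer to the mice of 16 dpp than to the other 3 mice of their age, and the difference of 2.75 ± 0.35 (SE; adjusted p = 1.6e-06) was the largest of that step among the members. Between 18 and 8 dpp the log2 differences were 5.79 for Tekt3, 4.45 for Tekt4, 3.42 for Tekt5 and 2.80 for Tekt2. Between these ages the mean ± SD of Tekt2 went from 6.01 ± 1.06 (n = 3) to 51.7 ± 22.3 TPM (n = 5), and that of Tekt5 from 0.55 ± 0.555 (n = 3) to 15.7 ± 5.48 TPM (n = 5).

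Of the 4 Spag genes outside the axoneme, 1 rose, where 31.8% of all genes were called higher, 2 were called lower, where 36.3% were, and 1 was not called. Spag5, a protein of the spindle, was at 24.8, 22.1 and 28.5 TPM at 8 dpp and 108, 118, 95.8, 77.3 and 68.6 TPM at 18 dpp. All mice of 18 dpp were higher, and the log2 difference was 1.83 ± 0.16 (SE; adjusted p = 1.0e-10). Spag9, a scaffold for kinases and motor proteins, was at 97.2, 98.5 and 85.1 TPM at 8 dpp and 67.3, 70.8, 61.1, 64.9 and 63.7 TPM at 18 dpp. All late mice were below all early ones, and Spag9 fell with a log2 difference of -0.51 ± 0.09 (SE; adjusted p = 2.8e-05), which was -0.33 and still called with median-of-ratios scaling. The adult samples had Spag9 at 34.8, 36.5, 37.3 and 34.8 TPM, below every juvenile mouse. Spag7 was at 69.4, 56.8 and 70.7 TPM at 8 dpp and 60.7, 61.8, 58.5, 57.3 and 52.9 TPM at 18 dpp. The ages overlap through mouse 2 of 8 dpp, the lowest of its age, and the difference of -0.16 ± 0.07 (SE; adjusted p = 0.0497) turned to 0.01 with median-of-ratios scaling. That call was lost without mouse 1 or 3 of 8 dpp (-0.12 and -0.11) or mouse 3, 4 or 5 of 18 dpp (-0.17, -0.16 and -0.13), and in all in 22 of 28 fits that left out 1 mouse. It was also lost, with the adjusted p in brackets, with no filter (0.0829), a constant prior variance (0.0634), only the 2 ages compared (0.145), replicate number as a block (0.0893) or mice 1 to 3 only (0.167). Spag4, a protein of the nuclear envelope, was at 7.4, 4.69 and 6.9 TPM at 8 dpp and 7.69, 4.78, 5.19, 3.16 and 5.07 TPM at 18 dpp, with overlapping ages and a difference of -0.27 ± 0.21 (SE; adjusted p = 0.265) that was not called.

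Among the 5 members in no list, all rose, by a median of 3.02, where 31.8% of all genes were called higher. The most abundant, Cfap36, went from a mean ± SD of 41.4 ± 3.83 (n = 3) to 308 ± 89.4 TPM (n = 5) between 8 and 18 dpp, and had the smallest log2 difference of them, 2.82. The largest was that of Cfap299, 5.82, from 0.117 ± 0.202 (n = 3) to 64.8 ± 22.9 TPM (n = 5). Its levels at 18 dpp were 75.2, 80.4, 88.04, 40.8 and 39.7 TPM, again with mice 4 and 5 lowest.

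**Figure D4:**
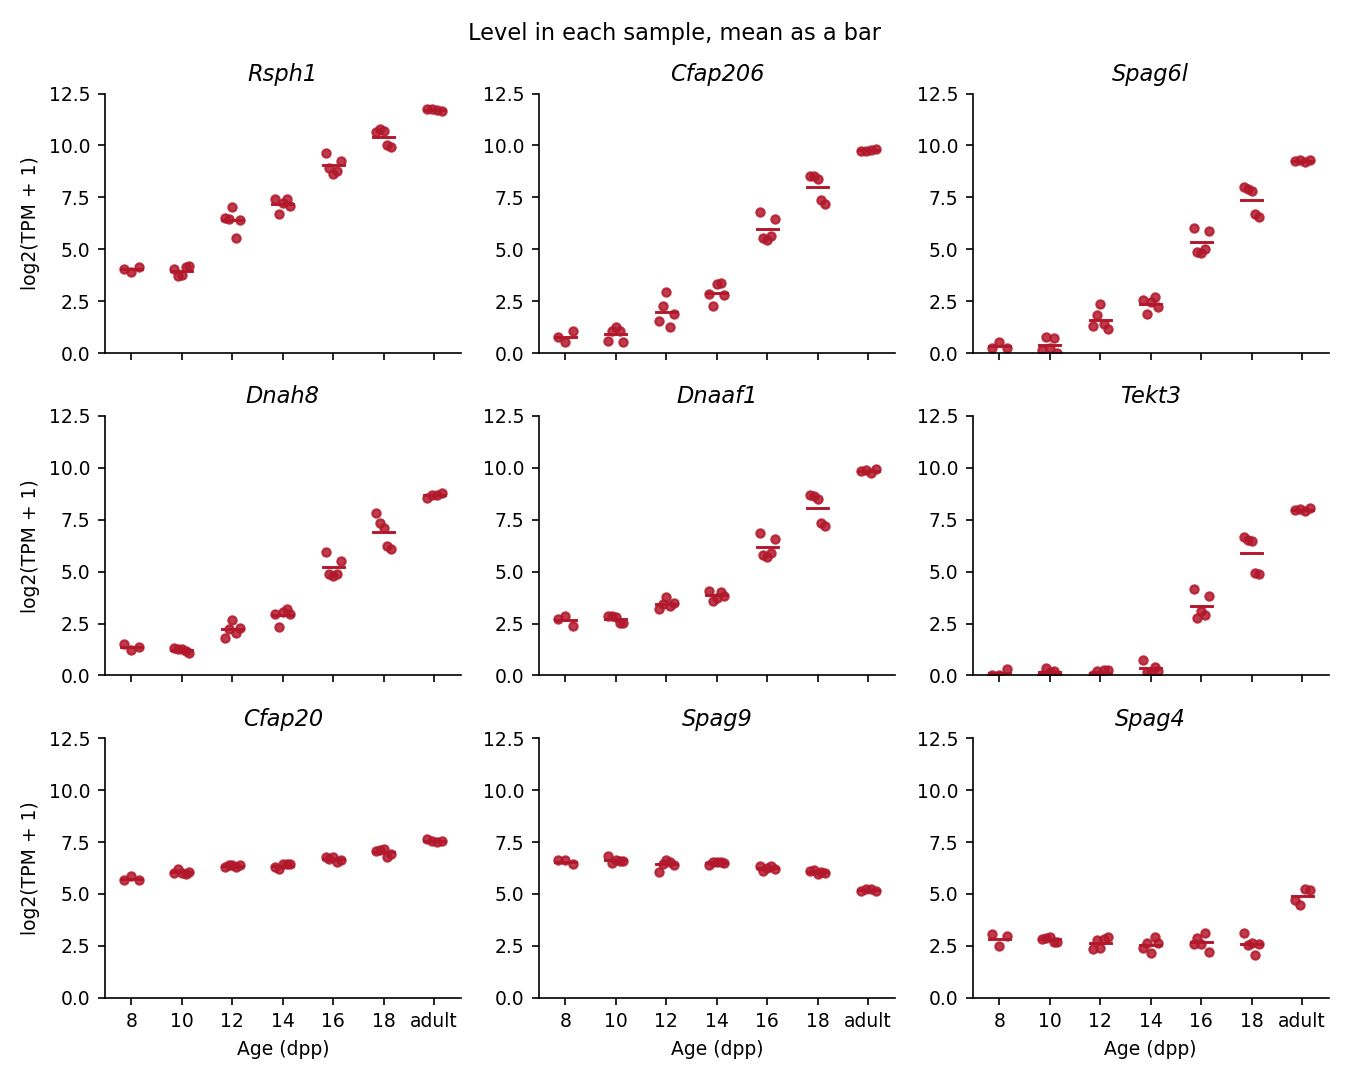
Level as log2(TPM + 1) of 9 members in each sample, by age in days post partum and for the adult pachytene/diplotene samples; each point is 1 sample and each bar the group's mean. Rsph1 leaves its early level at 12 dpp and Tekt3 at 16 dpp, Cfap20 is expressed throughout, Spag9 declines, and Spag4 is higher in the adult samples alone.

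The steps between neighbouring ages ask when the members moved, and since neighbouring steps share mice, their counts are given side by side only. Between 8 and 10 dpp, 1 member rose, where 0.977% of all genes were called higher, and 0 members were called lower by limma, where 0.226% were; 3 members and 11.5% of all genes had an unadjusted p under 0.05. The member was Cfap20, at 49.2, 56.4 and 50.02 TPM at 8 dpp and 63.6, 71.5, 64.1, 61.3 and 65.4 TPM at 10 dpp. Every mouse of 10 dpp was higher, and the log2 difference was 0.32 ± 0.08 (SE; adjusted p = 0.0349). It was not called without mouse 1 or 3 of 8 dpp (0.29 and 0.30) or without mouse 1, 2, 3 or 5 of 10 dpp (0.33, 0.29, 0.33 and 0.32), nor with median-of-ratios scaling (0.32). Nor was it called, with the adjusted p in brackets, with no filter (0.0611), a constant prior variance (0.0576) or only the 2 ages compared (0.0758).

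Between 10 and 12 dpp, 22 members rose, where 12.0% of all genes were called higher, and Cfap43 was called lower, though not without the transcript of Itprip, where 9.39% of genes were called lower. The largest log2 differences were those of Rsph1, 2.42 ± 0.22 (SE; adjusted p = 7.0e-09), Cfap65, 1.48 ± 0.22 (SE; adjusted p = 1.8e-05), and Spag6l, 1.22 ± 0.29 (SE; adjusted p = 0.00292). Cfap65 was at 0.18, 0.26, 0.24, 0.21 and 0.35 TPM at 10 dpp and 2.42, 2.21, 4.5, 1.97 and 1.87 TPM at 12 dpp. Spag6l was at 0.12, 0.73, 0.2, 0.66 and 0 TPM at 10 dpp and 1.47, 2.54, 4.12, 1.66 and 1.21 TPM at 12 dpp. Neither gene overlaps between the ages, and in both the highest mouse of 12 dpp was mouse 3, which was also highest for Rsph1. By role, 6 of 13 central apparatus members, 5 of 9 spoke members and 3 of 7 arm assembly factors rose at this step. So did 2 of 9 inner arm heavy chains, 2 of 8 doublet proteins and 2 of 7 nexin link and docking members. Among outer arm heavy chains it was 1 of 2, and among intermediate and light chains 1 of 4. The count was 0 of 5 tektins, 0 of 5 members in no list and 0 of 4 Spag genes outside the axoneme. The lists are small and were not tested against each other. The 23 calls became 12 without mouse 3 of 12 dpp, 15 without mouse 2 of 12 dpp, 13 without mouse 1 of 10 dpp and 13 without mouse 3 of 10 dpp. With median-of-ratios scaling they became 16, and the calls of all genes at this step went from 2450 higher and 1912 lower to 2226 and 2350.

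Between 12 and 14 dpp, 1 member rose, where 0.157% of all genes were called higher, and 0 members were called lower by limma, where 0.0147% were; 21 members and 9.63% of all genes had an unadjusted p under 0.05. The member was Cfap65, at 7.82, 4.96, 5.4, 10.1 and 6.72 TPM at 14 dpp against the levels of 12 dpp given before. All mice of 14 dpp were higher than those of 12 dpp, and the log2 difference was 1.16 ± 0.22 (SE; adjusted p = 0.0236). With median-of-ratios scaling the calls of all genes at this step went from 32 higher and 3 lower to 13 and 3, and Cfap65 was no longer called (1.13). It was also not called without mouse 1, 2, 4 or 5 of 12 dpp (1.15, 1.13, 1.10 and 1.09) or mouse 1, 6 or 7 of 14 dpp (1.12, 1.03 and 1.16). Other fits that did not call it, with the adjusted p in brackets, were those with no filter (0.0963), only the 2 ages compared (0.135), replicate number as a block (0.579) and mice 1 to 3 only (0.36). Without mouse 3 of 12 dpp the step had 3 calls among the members, and without mouse 2 of 14 dpp it had 2.

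Between 14 and 16 dpp, 64 members rose, where 12.7% of all genes were called higher, and Spag9 was called lower, where 11.3% were. Members such as Tekt3 and Dnah6 are in the gene table through 16 and 18 dpp only, so this count is not independent of the filter. The median log2 difference of the members was 1.44, and that of all genes -0.06. With median-of-ratios scaling the calls of all genes moved from 2594 higher and 2296 lower to 2860 and 1454, while the members had 65 calls under either. Cfap70, of the central apparatus, was at 3.76, 2.22, 1.59, 3.25 and 1.85 TPM at 14 dpp and 55.6, 20.6, 18.5, 20.9 and 35.6 TPM at 16 dpp. Its ages were apart, mouse 1 of 16 dpp was highest, and its difference of 3.06 ± 0.30 (SE; adjusted p = 1.5e-08) was the largest of the step beside that of Cfap206. Cfap206 was at 110.2, 45.8, 41.97, 48.03 and 87.7 TPM at 16 dpp, with mice 1 and 5 highest, and its difference was 3.06 ± 0.32 (SE; adjusted p = 3.8e-08). Spag9 was at 82.1, 91.3, 91.8, 90.6 and 87.9 TPM at 14 dpp and 80.8, 68.2, 76.2, 79.8 and 71.6 TPM at 16 dpp, a difference of -0.24 ± 0.08 (SE; adjusted p = 0.0347). All mice of 16 dpp were below those of 14 dpp, and the call was lost without mouse 2, 3, 6 or 7 of 14 dpp (-0.22, -0.22, -0.23 and -0.24) or mouse 2 or 5 of 16 dpp (-0.20 and -0.22), and with median-of-ratios scaling (-0.17). With the adjusted p in brackets, it was also lost with no filter (0.0914), replicate number as a block (0.133) or mice 1 to 3 only (0.201).

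Between 16 and 18 dpp, 68 members rose, where 23.4% of all genes were called higher, and Spag9 was called lower, where 30.6% were. The members' median was 1.52, and that of all genes -0.11. Under median-of-ratios scaling the calls of all genes turned from 4775 higher and 6227 lower to 6193 and 3630, and the members had 70 calls in place of 69. The largest log2 differences were those of Tekt4, Tekt3 and Dnaic2, whose levels are given with their roles. Spag9 differed by -0.20 ± 0.08 (SE; adjusted p = 0.0423), and mouse 2 of 18 dpp lay among the mice of 16 dpp. Its call was lost without mouse 1, 3 or 4 of 16 dpp (-0.17, -0.19 and -0.17) or mouse 1, 3, 4 or 5 of 18 dpp (-0.21, -0.17, -0.19 and -0.19), and with median-of-ratios scaling (-0.03). This call, too, was lost with no filter (0.0978), a constant prior variance (0.0559), replicate number as a block (0.0731) or mice 1 to 3 only (0.25), with the adjusted p in brackets. Of the 73 members, 64 rose at both of the last steps, as did 11.6% of all genes. As some members are in the gene table through these ages only, this count and the 68 are not independent of the filter. The first step at which a member rose ended at 10 dpp for 1 member, at 12 dpp for 21, at 16 dpp for 43 and at 18 dpp for 4, and 4 rose at no step. The late 4 were Cfap73, Dnaic2, Dnal1 and Spag6, and the 4 that rose at no step were Cfap77, Spag4, Spag7 and Spag9. The counts of 1 and 21 rest on early calls that moved with the fit. Between 10 and 12 dpp, 23 calls became 12 without mouse 3 of 12 dpp and 10 with no filter. The 1 call between 8 and 10 dpp became 0 with no filter.

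**Figure D5:**
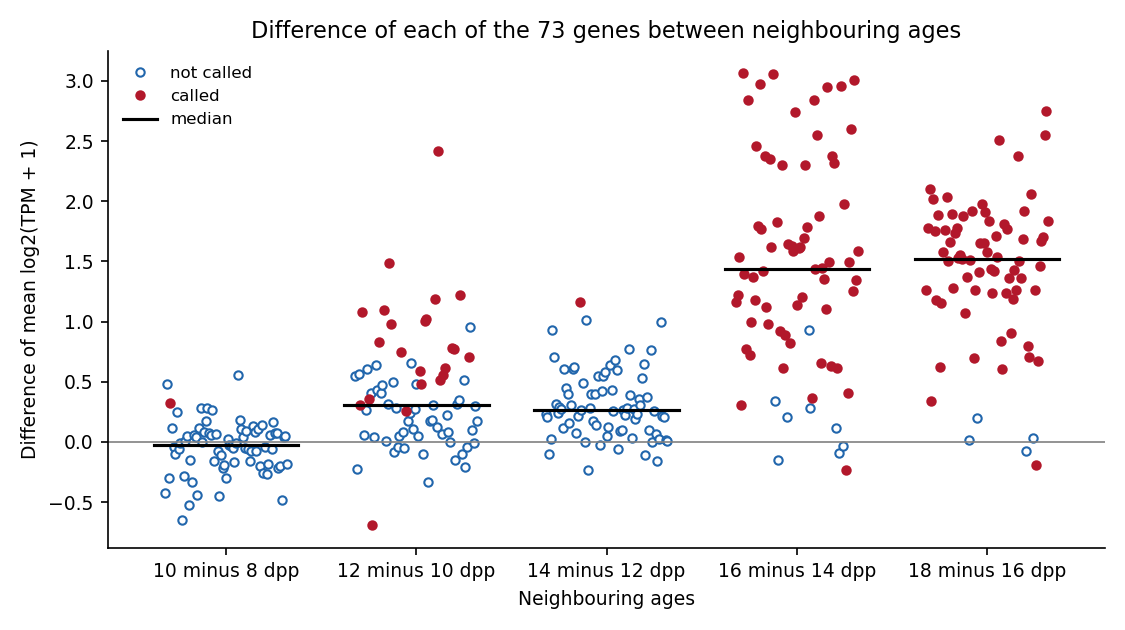
Difference of mean log2(TPM + 1) between neighbouring ages for each of the 73 genes, 1 point per gene, filled where limma called it and open where not, with the median of each step as a black line. The medians are 1.44 and 1.52 at the last steps and 0.31 or less at the others, and the filled points below 0 are Cfap43 between 10 and 12 dpp and Spag9 at the last steps, where Spag9 was not called with median-of-ratios scaling.

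The use of transcripts within a gene, as each transcript's percent of the gene's TPM, was compared between 10 and 18 dpp where the gene averaged 3 TPM or more at both ages. Of the 50 transcripts of 15 members that could be tested, 9 transcripts of 6 members changed by at least 20 percentage points with an adjusted p under 0.05, where 3.68% of 23666 transcripts of all genes did, and without the transcripts counted for Cfap43 these were 7 transcripts of 5 members. The protein-coding transcript Cfap126-201 made up 0, 19.8, 0, 2.57 and 0% of Cfap126, a doublet protein, in the mice of 10 dpp and 79.9, 83.7, 97.02, 78.5 and 85.3% in those of 18 dpp. It was at or near 0 in 4 mice of 10 dpp and the main transcript of every mouse of 18 dpp, a change of 80.4 ± 10.3 (SE; adjusted p = 4.6e-06) points. In Cfap43 the share of Itprip-201 changed by -75.3 ± 3.78 (SE; adjusted p = 8.5e-13) points, and that of Cfap43-204, its main own transcript at 18 dpp, by 60.6 ± 2.397 (SE; adjusted p = 2.7e-14) points. Tekt2-202 made up 0, 74.6, 0, 0 and 0% of Tekt2 at 10 dpp and 94.8, 77.5, 93.1, 92.8 and 89.8% at 18 dpp. Mouse 2 of 10 dpp was close to the mice of 18 dpp, and the change of 74.7 ± 21.97 (SE; adjusted p = 0.0225) points was not called without mouse 1, 3 or 4 of 10 dpp (70.9 points each). The other members with a changed transcript were Cfap97, Dnal1 and Spag9, where both transcripts of Cfap97 lost their call without mouse 2, 3 or 4 of 10 dpp or mouse 1, 2, 3 or 4 of 18 dpp. The retained-intron transcript Dnal1-205 was at 18.2, 3.04, 0, 0 and 0% at 10 dpp and 44.8, 39.9, 45.2, 32.7 and 38.05% at 18 dpp. Its ages did not overlap, and its change was 35.9 ± 3.61 (SE; adjusted p = 1.2e-07) points. Tekt2 and Cfap126 had few TPM at 10 dpp, 4.01 and 3.89 on average, so that shares at that age rest on low levels.

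In the adult pachytene and diplotene samples the median of the members' mean levels was 135 TPM, and that over all genes was 5.92 TPM. For 70 members every adult sample was above every mouse of 18 dpp, which held for 22.3% of the 20366 genes with an adult value, and for Spag9 every adult sample was below. These levels come from a separate normalization and were not tested against the juvenile ones. Spermatid markers summed to 1066 TPM in the adult samples and 12.02 TPM at 18 dpp. A part of spermatids in the adult levels was not tested. Rsph1 was again the most abundant member, at 3455, 3499, 3378 and 3242 TPM. Cfap206 was at 858, 863, 876 and 904 TPM and Spag6l at 618, 628, 578 and 636 TPM. The adult samples lay close together for all 3 genes and well above the mice of 18 dpp. Spag4, level from 8 to 18 dpp, was at 25.3, 20.9, 36.6 and 35.4 TPM in the adult samples, and Cfap77 was at 2.71, 1.38, 2.76 and 2.84 TPM. Spag6 reached 13.4, 9.43, 18.7 and 15.9 TPM, against a mean of 1.62 TPM at 18 dpp.

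The 11 matching genes that were not in the juvenile gene table were Spag11a, Spag11b, Dnah3, Cfap100, Dnah11, Dnah9, Dnah5, Rsph4a, Cfap99, Cfap97d1 and Cfap97d2. Dnah5, Dnah9, Dnah11 and Rsph4a are known from motile cilia of other tissues, and none of the 4 passed 3 TPM in any mouse. The mean ± SD of Dnah5 was 0.12 ± 0.0173 TPM in the 3 mice of 8 dpp, 0.068 ± 0.0409 TPM in the 5 of 18 dpp and 0.11 ± 0.0616 TPM in the 4 adult samples. Dnah11 had means of 2.74 ± 0.171, 1.31 ± 0.131 and 1.31 ± 0.0964 TPM, highest at 8 dpp. Rsph4a had means of 0.303 ± 0.202, 0.196 ± 0.1704 and 0.517 ± 0.164 TPM, while Rsph6a, its counterpart in sperm and a member, had 0.28 ± 0.348, 78.2 ± 47.04 and 281 ± 19.8 TPM. Of the others, Cfap100, Cfap97d1 and Dnah3 were higher in every adult sample than in any mouse, with means of 5.82, 13.04 and 4.06 TPM, and Cfap99 had no value in any table.

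Of 60 other genes of the axoneme and flagellum listed by name, 50 were tested, and 48 rose between 8 and 18 dpp, where 31.8% of all genes were called higher, while the others, Ribc1 and Cabyr, were not called. Their median log2 difference was 3.87, and that of all genes -0.09. Zmynd10, a dynein arm assembly factor, was at 0, 0.15 and 0.39 TPM at 8 dpp and 361, 356, 334, 207 and 181 TPM at 18 dpp. Its ages were far apart, with mice 4 and 5 of 18 dpp lowest, and its difference of 7.89 ± 0.31 (SE; adjusted p = 3.6e-17) was the largest of the list. Odf4, of the outer dense fibres, and Ropn1l, of the fibrous sheath, followed with 7.05 ± 0.32 (SE; adjusted p = 3.2e-16) and 5.84 ± 0.24 (SE; adjusted p = 1.1e-16). The 10 genes not tested were Nme9, Odf1, Odf3, Akap4, Akap14, Ropn1, Gapdhs, Catsper1, Catsper3 and Catsper4, several of which are known from spermatids. They stayed under 3 TPM in every juvenile mouse, while some of the 48 passed that limit at the late ages only. Fbxl13 did so in mouse 3 of 18 dpp alone (3.17 TPM), and Armc4 was at most at 0.67 TPM up to 14 dpp. The count of 48 is therefore not independent of the filter. At the steps, 20 of the 50 rose between 10 and 12 dpp (12.0% of all genes), 43 between 14 and 16 dpp (12.7%) and 48 between 16 and 18 dpp (23.4%).

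Of 15 listed regulators of ciliary and spermatocyte genes, 13 were tested between 8 and 18 dpp, and 8 rose, where 31.8% of all genes were called higher, 3 were called lower, where 36.3% were, and 2 were not called. Rfx2, an RFX factor of spermatocytes, was at 6.04, 4.56 and 6.63 TPM at 8 dpp and 158, 143, 143, 93.8 and 86.2 TPM at 18 dpp, a log2 difference of 4.19 ± 0.21 (SE; adjusted p = 2.8e-15). Its mice of 18 dpp split like those of the members, with mice 1, 2 and 3 high. Rfx4 was at 0.16, 0 and 0.14 TPM at 8 dpp and 41.5, 42.8, 39.05, 22.4 and 21.5 TPM at 18 dpp, with a difference of 4.91 ± 0.24 (SE; adjusted p = 1.7e-15). Sox30, which drives genes of late spermatocytes and spermatids, had 3.42 ± 0.16 (SE; adjusted p = 1.1e-15), and Mybl1, the MYB factor of pachytene spermatocytes, had 1.87 ± 0.14 (SE; adjusted p = 5.6e-12). Mybl1 was at 12.1, 11.8 and 12.8 TPM at 8 dpp and 58.7, 50.7, 47.9, 39.6 and 41.6 TPM at 18 dpp, with no overlap. Rfx3, an RFX factor of ciliated cells, was at 4.55, 3.7 and 4.75 TPM at 8 dpp and 4.18, 4.35, 3.7, 3.03 and 4.46 TPM at 18 dpp, and its ages overlapped. Foxj1, the master factor of motile cilia, was at 3.62, 2.18 and 4.2 TPM at 8 dpp and 6.79, 6.3, 3.96, 1.88 and 3.68 TPM at 18 dpp, also with overlap. Neither was called, with log2 differences of -0.11 ± 0.13 (SE; adjusted p = 0.439) for Rfx3, which was 0.03 with median-of-ratios scaling, and 0.29 ± 0.31 (SE; adjusted p = 0.417) for Foxj1. Called lower were Rfx1 (-0.65), E2f5 (-0.62) and Rfx7 (-0.46), and not in the gene table were Mcidas and Gmnc.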

How the data were processed

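The deposited tables hold germ cells of 28 juvenile mice, after the authors had left out discordant samples of 8 dpp, and 4 adult spermatocyte samples. Reads were aligned by the authors with Bowtie 1.0.0 to transcripts on mm10, from Ensembl, NONCODE and piRNA precursors, and RSEM 1.2.8 gave transcript abundance. The deposited transcript and adult tables hold TPM as made by the authors, and the deposited juvenile gene table holds exp(log2(TPM + 1)) - 1, from which TPM was recovered, while the design had assumed TPM there. That relation was checked against sums of the transcript table. Ages were compared with limma 3.58.1 (R 4.3.3) on log2(TPM + 1), with 6 ages in 1 model, a prior variance fitted as a trend on the mean level, and Benjamini-Hochberg adjusted p under 0.05 over 20368 genes, and the fit was tested on simulated data. Tables and figures were made with Python 3.11.15, numpy 2.4.6, pandas 2.3.3 and matplotlib 3.10.9.

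Transcript usage was tested with limma on percentages of the gene's TPM, for genes with 2 or more transcripts of at least 1 TPM on average. The members and lists were chosen with earlier results of these data known. Named members are, per role, the most abundant at 18 dpp and those with the largest and smallest log2 difference between 8 and 18 dpp, up to 5 called members with the largest fall, per step the 3 called members with the largest change each way, all tektins and Spag genes outside the axoneme, near-identical copies, and 3 genes with the largest change of usage. From the other lists these are the 3 called genes with the largest change each way and Foxj1, Rfx2, Rfx3 and Mybl1. Cfap298, Cfap161 and Rsph6a were named after their values were seen. Alternatives were another pseudocount, filter, scaling, prior variance, subset of mice and block, and leaving out each mouse. Those without the transcript of Itprip, with the 300-base window and without each adult sample were chosen after seeing the data.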

Additional observations from a re-analysis of the deposited data

Results flagged for a closer look

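A sample was singled out where its gap to the nearest of its group was a larger part of the group's range than Dixon's 95% limit for 4 or 5 samples. Of 274 groups tested, over 34 members and 12 summed levels, 15 had such a sample, and chance gives about 1 in 20 groups. Mouse 3 of 12 dpp was the highest of its age for Cfap65 (4.5 TPM, against 1.87 to 2.42 in the others), Dnaic1 (4.71 TPM, against 2.22 to 2.62), Spag5 (31.77 TPM, against 23.8 to 25.96), Dnah7c (0.48 TPM, against 0 in the others) and the sum of the nexin link and docking genes (28.83 TPM, against 20.9 to 23.02). That mouse also had the highest sum of spermatocyte markers of its age (681 TPM, against 461 to 585) and the lowest of Sertoli cell markers (7332 TPM). Among other mice, Dnah10 was at 1.14 TPM in mouse 4 of 12 dpp, Cfap73 at 0.34 TPM in mouse 1 of 10 dpp, Cfap299 at 0 TPM in mouse 3 of 10 dpp (against 0.38 to 0.45) and Spag7 at 50.21 TPM in mouse 6 of 14 dpp (against 59.2 to 62.4). The sum of the Spag genes outside the axoneme was 213.99 TPM in mouse 1 of 16 dpp, and that of the members in no list was 68.43 TPM in mouse 5 of 10 dpp. In the adult samples, Cfap298 was at 635.14 TPM and Cfap77 at 1.38 TPM in sample 2, Rsph10b at 39.79 TPM in sample 4, and the sum of the Spag genes outside the axoneme at 285.79 TPM in sample 1. The causes were not tested.

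Genes outside the juvenile gene table gave signal in the adult samples, in each of them above all juvenile mice: Cfap100 with a mean of 5.82 TPM, Cfap97d1 with 13.04 TPM and Dnah3 with 4.06 TPM. These tables were normalized apart, and the difference was not tested. A part of spermatids, whose markers were also higher in the adult samples, was not tested either.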

How the results depend on the processing

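Of the counts, the members called higher between 8 and 18 dpp and those called at the last steps, between 14 and 16 and between 16 and 18 dpp, stayed within 1.5 times their values under every alternative. The 2 members called lower between 8 and 18 dpp became 1 with no filter, 1 with median-of-ratios factors, 1 with a constant prior variance, 1 with only the 2 ages compared and 1 with mice 1 to 3 only, Spag7 being lost in each. Between 8 and 10 dpp the count of 1 became 0 with no filter, 0 with median-of-ratios factors, 0 with a constant prior variance and 0 with only the 2 ages. Between 10 and 12 dpp the count of 23 became 10 with no filter, 16 with median-of-ratios factors and 30 with a pseudocount of 0.1. Between 12 and 14 dpp the count of 1 became 2 with a pseudocount of 0.1, 0 with no filter, 0 with median-of-ratios factors, 0 with only the 2 ages and 0 with mice 1 to 3 only. The 9 transcripts with changed usage became 16 with a limit of 10 points, a looser criterion by its construction, and 7 where the gene had to reach 10 TPM. Other causes were not tested.

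Replicate numbers do not pair the mice, and with replicate number as a block the counts were 69 higher and 1 lower between 8 and 18 dpp, then 1, 18, 0, 63 and 68 at the steps, and 9 transcripts. Cfap77 between 8 and 18 dpp was 0.0727 with that block.

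Leaving out 1 mouse at a time gave 68 to 69 members higher and 1 to 2 lower between 8 and 18 dpp, 0 to 1, 12 to 25, 0 to 3, 63 to 66 and 67 to 70 calls at the steps in order of age, and 6 to 10 transcripts. Leaving out 1 adult sample, tried after seeing the data, gave mean summed levels of 17826.2 to 18082.5 TPM.

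Over 108 named differences, 883 of 913 values under other settings kept direction and side of the threshold, 25 lost their call and 5 changed sign. Without 1 mouse of the 2 ages compared these were 851, 56 and 1 of 908. Calls lost without a mouse of another age, as for Spag7, are not in that tally. Those that changed sign were Cfap43 between 10 and 12 dpp (0.481 without the transcript of Itprip), Spag7 (0.0102) and Rfx3 (0.0313) between 8 and 18 dpp with median-of-ratios factors, and Cfap77 between these ages with the block, with mice 1 to 3 only (0.291) and without mouse 4 of 18 dpp (0.114). Without 1 mouse at a time the difference of Cfap77 between 8 and 18 dpp ranged from -0.309 to 0.114. In usage, Cfap97-201 and Cfap97-206 lost their call without mouse 2, 3 or 4 of 10 dpp or mouse 1, 2, 3 or 4 of 18 dpp.

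TPM keeps no read counts, so counting error at low levels, which bears on Cfap73, Cfap77 and Spag6, could not be given. Library strand is not stated, so members that overlap a gene on the other strand, and near-identical copies, are uncertain in level.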
